A study of Mus musculus with 18 samples.

Results

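Mitochondria carry a ribosome of their own, which translates the respiratory chain subunits that are encoded in mitochondrial DNA. Its RNAs are transcribed inside the organelle, whereas all of its proteins are encoded by nuclear genes, made on cytosolic ribosomes and imported. The large subunit (Mrpl genes) holds the peptidyl transferase centre and the exit tunnel, and the small subunit (Mrps genes) decodes the mRNA. Some of these proteins descend from bacterial ribosomal proteins, and others were added in the mitochondrial lineage.

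The genes described here are those whose symbol is Mrpl or Mrps followed by a number. Of the 45281 probes on the array, 132 carried such a symbol, and they stand for 76 of 19057 named genes, 48 of the large and 28 of the small subunit. They were measured in CGR8 cells, a mouse embryonic stem (ES) cell line of strain 129P2/Ola, in which nucleolin (Ncl), an abundant RNA-binding protein of the nucleolus, was depleted by RNA interference. All cells carried a stably integrated siRNA construct switched on by tetracycline (Tc). The 6 groups of 3 arrays were Ncl-1 cells with and without Tc, Ncl-2 cells with and without Tc, in which another siRNA targets nucleolin, and EGFP cells with and without Tc, the control, whose siRNA is directed at a protein that mouse cells do not have. Tc was given for 3 days, and the labels do not state whether a line was 1 clone or whether replicates were separate cultures, so the p-values rest on a spread between samples that may be technical.

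Signals are log2 values after background correction and quantile normalization, so that a difference of 1 is a doubling. Mean raw intensity was 280 to 837 per array, and 40.0% to 46.4% of probes were detected. The 6 arrays of replicate 3 were the brightest (625 to 837) and lay apart from the other 12 on the first principal component (45.6% of the variance), and members are therefore also given by replicate. The ES cell identity was checked with 10 marker genes, all measured, whose summed linear signal was 96000 to 117000 in Ncl-1 cells with Tc, 109000 to 113000 without Tc, 100000 to 106000 in Ncl-2 cells with Tc, 110000 to 113000 without Tc, 94700 to 96900 in EGFP cells with Tc and 93300 to 103000 without Tc. Such a sum is carried by the brightest markers and can hide a change of a single one. By limma 0 of the 10 changed with Tc in any line without the replicate block described below. Without the block 8.12% of all genes passed in Ncl-1 cells, 9.13% in Ncl-2 cells and 0% in EGFP cells. With the block 1 of the 10 was higher and 0 lower in Ncl-1 cells, against 14.2% and 12.5% of all genes. In Ncl-2 cells 1 was higher and 1 lower with it, against 13.9% and 13.1%. Of 12 markers of differentiated cells 4 were measured (Gata6, Krt8, Krt18 and Nes). Their sums were 310 to 1940 in Ncl-1 cells with Tc, 406 to 613 without Tc, 606 to 1800 in Ncl-2 cells with Tc, 503 to 850 without Tc, 678 to 1120 in EGFP cells with Tc and 652 to 1050 without Tc. Their median log2 change was 0.76 in Ncl-1 cells, 0.79 in Ncl-2 cells and 0.08 in EGFP cells. By limma 0 of the 4 passed without the replicate block described below, and with it Nes was higher in Ncl-1 cells and Gata6 in Ncl-2 cells, both named after their values were seen. Of 7 fibroblast markers 1, Thy1, was measured. The part of other cells in the results was not tested, and in bulk RNA fewer cells of a type and less RNA per cell cannot be told apart.

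Almost all of the mitochondrial ribosomal proteins were expressed. Testing a gene required a probe detected on every array of some group, a condition met by 116 of the 132 probes and 73 of the 76 genes, 46 of the large and 27 of the small subunit. The probe used for each gene was its brightest, and for 72 of the 73 genes it was detected on all 18 arrays. The exception was Mrps27, detected on 17. Mrpl19, by 2 probes, and Mrpl32, by 1 probe, were detected on 0 arrays, and Mrps14 was detected on 6 arrays spread over 5 groups. The 132 probes did not include Mrpl41 or Mrps36, so neither gene was analysed here. The Mrps36 protein is not part of the mitochondrial ribosome despite its symbol.

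The promoters of these genes hold short motifs that are known from nuclear genes for mitochondrial proteins. Windows from 250 bases before to 50 bases after a transcript start were taken from RefSeq (GRCm38.p6), which gave 73 windows for 67 of the 76 genes, 42 of the large and 25 of the small subunit. Each motif was searched on both strands. CCGGAAG, the core bound by ETS factors such as GABP, was in 26 of the 73 windows (35.6%) and in 2910 of all 32851 windows (8.86%). GCGCA followed by any base and GCGC, which resembles the site of NRF1, was in 13 windows (17.8%, against 4.6% of all windows). AAGATGGCG, which resembles the site of YY1, was in 8 windows (11%, against 1.4% of all windows) and can share the letters AAG with CCGGAAG. The ETS core was found for 15 large and 11 small subunit genes, the NRF1-like motif for 10 and 3, and the YY1-like motif for 4 and 4. The windows of 3 genes, cut for Mrpl12 and Mrps9 to 30 bases after the start, are shown because these were the members lower in both nucleolin lines by the tests given below, with the motif in capitals and each sequence written on the strand of its gene. They lie at chr11:120484387-120484666 (Mrpl12, plus strand, 280 bases), chr6:71823735-71824034 (Mrpl35, minus strand, 300 bases) and chr1:42850983-42851262 (Mrps9, plus strand, 280 bases).
Mrpl12: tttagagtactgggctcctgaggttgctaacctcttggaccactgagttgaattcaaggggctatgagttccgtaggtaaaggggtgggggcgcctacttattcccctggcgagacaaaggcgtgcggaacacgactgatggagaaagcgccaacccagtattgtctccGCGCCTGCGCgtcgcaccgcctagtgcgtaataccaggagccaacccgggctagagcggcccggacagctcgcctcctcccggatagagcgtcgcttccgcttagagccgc
Mrpl35: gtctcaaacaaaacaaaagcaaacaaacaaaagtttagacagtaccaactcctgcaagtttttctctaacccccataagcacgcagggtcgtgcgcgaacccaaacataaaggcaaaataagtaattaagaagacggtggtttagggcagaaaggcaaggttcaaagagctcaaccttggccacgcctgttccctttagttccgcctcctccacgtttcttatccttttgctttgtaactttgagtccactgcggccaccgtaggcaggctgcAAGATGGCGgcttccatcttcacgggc
Mrps9: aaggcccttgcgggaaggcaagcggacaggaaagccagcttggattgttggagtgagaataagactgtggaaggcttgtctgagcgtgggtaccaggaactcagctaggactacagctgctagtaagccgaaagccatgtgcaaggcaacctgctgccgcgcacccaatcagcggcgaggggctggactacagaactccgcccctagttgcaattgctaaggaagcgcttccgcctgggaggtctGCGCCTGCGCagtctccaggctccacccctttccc
The capitals in Mrpl12 and Mrps9 are the NRF1-like motif read from the opposite strand, and those in Mrpl35 are the YY1-like motif on the gene's own strand. The ETS core was not found in the windows of these genes. A match describes letters and shows no binding, and its relation to the changes with Tc was not tested.

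The siRNAs acted on their target. Ncl (Entrez Gene 17975) had log2 signals of 7.10, 6.48 and 7.52 in Ncl-1 cells with Tc, against 11.21, 11.80 and 12.10 without Tc. Ncl-2 cells had 7.12, 6.42 and 7.43 with Tc, against 10.93, 11.39 and 11.77 without Tc. EGFP cells had 11.12, 11.22 and 11.77 with Tc, against 10.90, 11.24 and 11.78 without Tc, so the signals overlapped in that line and in no other. By limma, Ncl changed by -4.67 ± 0.36 (SE, adjusted p = 2.2e-06) in Ncl-1 cells and by -4.37 ± 0.36 (adjusted p = 4.18e-06) in Ncl-2 cells.

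In both nucleolin lines most mitochondrial ribosomal protein transcripts had a mean change with Tc of at most 0.5. In Ncl-1 cells 7 of 73 members (9.59%) differed by more than 0.5 between Tc and no Tc, against 34.2% of all genes tested, and in Ncl-2 cells 9 (12.3%) did, against 33.1%. A difference above 1 was measured for 1 member in Ncl-1 cells, Mrpl35, and for 0 in Ncl-2 cells, against 10.8% and 10.9% of all genes. In EGFP cells 0 members differed by more than 0.5, against 0.388% of all genes. These are means over the replicate pairs. In Ncl-1 cells the subunit medians of the pairs differed in sign, so opposite values partly cancel. In the replicate 3 pair of Ncl-1 cells alone 9 members (12.3%, against 11.5% of all genes) were higher with Tc by more than 1. One member, the large subunit protein Mrpl12, passed the limma test in both nucleolin lines, and a few more passed it when the replicate number was fitted as a block. Values with this block are given as well because arrays with the same replicate number deviated together.

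**Figure D1:**
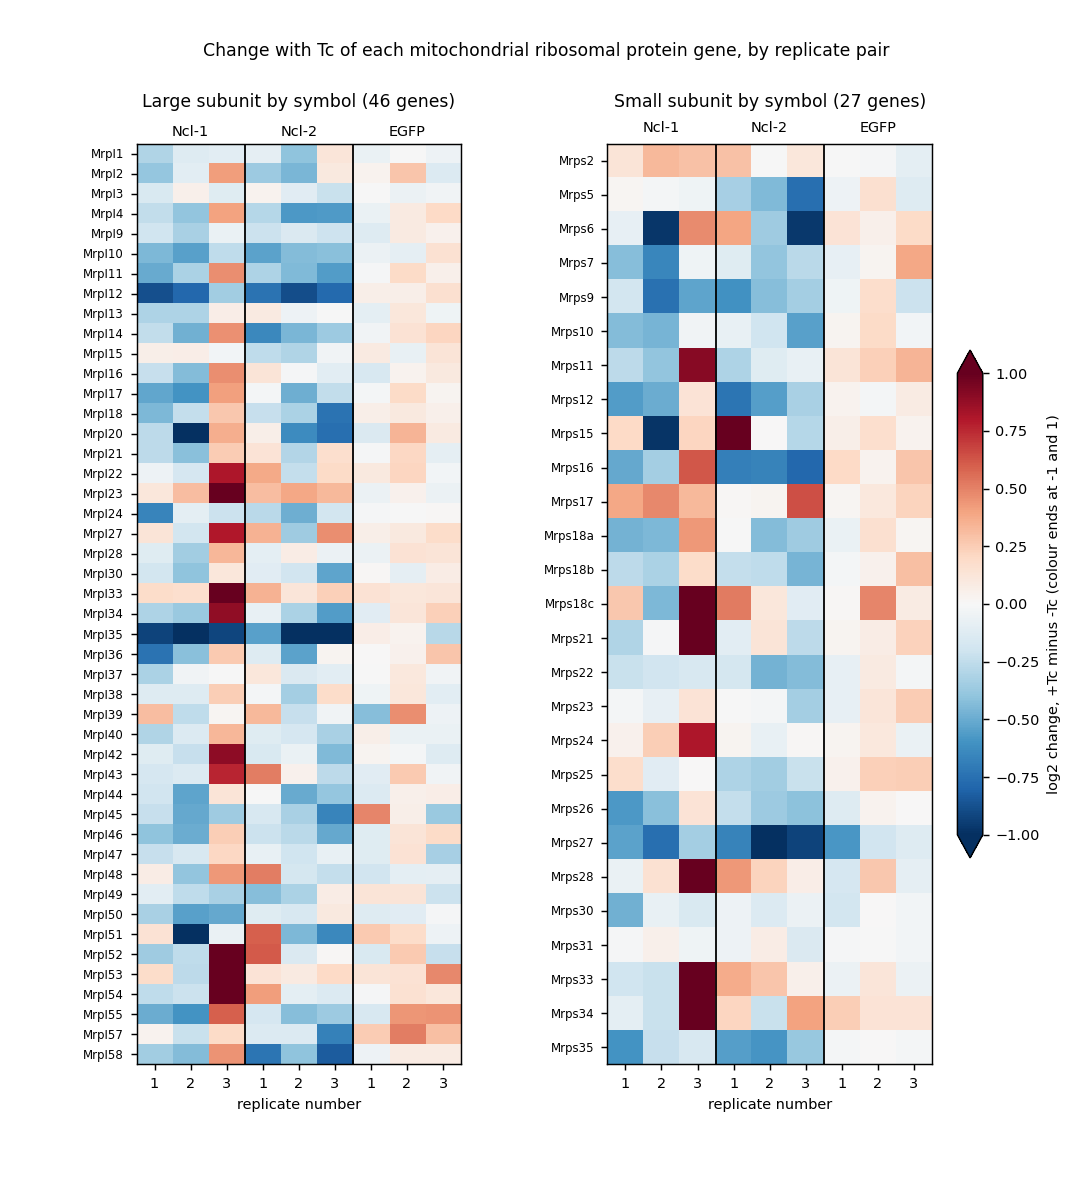
Log2 difference with minus without Tc for each of the 73 members (down the page, large subunit left and small subunit right) in the 3 replicate pairs of the Ncl-1, Ncl-2 and EGFP lines (columns). Blue is lower and red is higher with Tc, and the replicate 3 column of Ncl-1 cells, with 51 members above 0, stands apart from its other 2 columns, with 16 and 9.

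Mrpl12 is the stalk protein of the large subunit, the counterpart of bacterial L7/L12, which recruits translation factors to the ribosome. Its human form also binds the mitochondrial RNA polymerase. Mrpl12 (Entrez Gene 56282) had log2 signals of 11.99, 11.94 and 11.95 in Ncl-1 cells with Tc, against 12.87, 12.73 and 12.30 without Tc. Ncl-2 cells had 12.05, 11.89 and 11.97 with Tc, against 12.79, 12.78 and 12.75 without Tc. EGFP cells had 12.92, 12.98 and 12.69 with Tc, against 12.86, 12.92 and 12.53 without Tc. All 6 nucleolin-depleted arrays lay below all 12 other arrays. In Ncl-1 cells Mrpl12 fell by 0.67 ± 0.18 (limma adjusted p = 0.0343, and 0.00347 with the replicate block). In Ncl-2 cells it fell by 0.80 ± 0.18 (adjusted p = 0.0122, and 0.000883 with the block), and in EGFP cells its change was 0.09 ± 0.18 (adjusted p = 1). The mean response of the nucleolin lines minus the EGFP response was -0.83 ± 0.23 (adjusted p = 0.0585, and 0.00568 with the block). With replicates 1 and 2 alone the changes were -0.89 (adjusted p = 0.00748), -0.86 (0.00585) and -0.94 for the response difference (0.0234). Single arrays decided the Ncl-1 call. Its adjusted p was 0.129 and 0.122 with the first or second Ncl-1 array without Tc left out, 0.0832, 0.0804 and 0.0871 with any one of the Ncl-1 arrays with Tc left out, and 0.0503 with EGFP +Tc replicate 1 left out. Without Ncl-1 -Tc replicate 3, which read 12.30, the response difference also passed (adjusted p = 0.0247). Median scaling in place of quantile normalization gave changes of -0.74 (adjusted p = 0.203) and -1.01 (0.0638) and ended both calls. With every kept probe tested by itself the limma adjusted p of Mrpl12 was 0.0512 in Ncl-1 cells, which ended that call, and 0.0182 in Ncl-2 cells.

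Mrpl35, the counterpart of bacterial L35 in the large subunit, differed most between the groups. Mrpl35 (Entrez Gene 66223) had log2 signals of 7.62, 7.31 and 6.75 in Ncl-1 cells with Tc, against 8.55, 8.50 and 7.66 without Tc. Ncl-2 cells had 7.86, 7.35 and 6.71 with Tc, against 8.41, 8.37 and 7.85 without Tc. EGFP cells had 9.53, 9.64 and 8.89 with Tc, against 9.46, 9.61 and 9.17 without Tc. All 6 EGFP arrays were above all 12 arrays of the nucleolin lines, and within those lines the Tc arrays were lower in each replicate pair. The change was -1.01 ± 0.34 in Ncl-1 cells and -0.90 ± 0.34 in Ncl-2 cells, and neither passed the limma test without the block (adjusted p = 0.0846 and 0.128). With the block Mrpl35 was lower in both (adjusted p = 0.000338 and 0.000843), and so was its response difference of -0.90 (adjusted p = 0.00689 with the block, 0.36 without). With replicates 1 and 2 alone it fell by 1.03 (adjusted p = 0.0114) in Ncl-1 cells and by 0.76 (0.0325) in Ncl-2 cells. Without Ncl-1 -Tc replicate 3 the Ncl-1 change passed without the block (adjusted p = 0.0427).

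**Figure D2:**
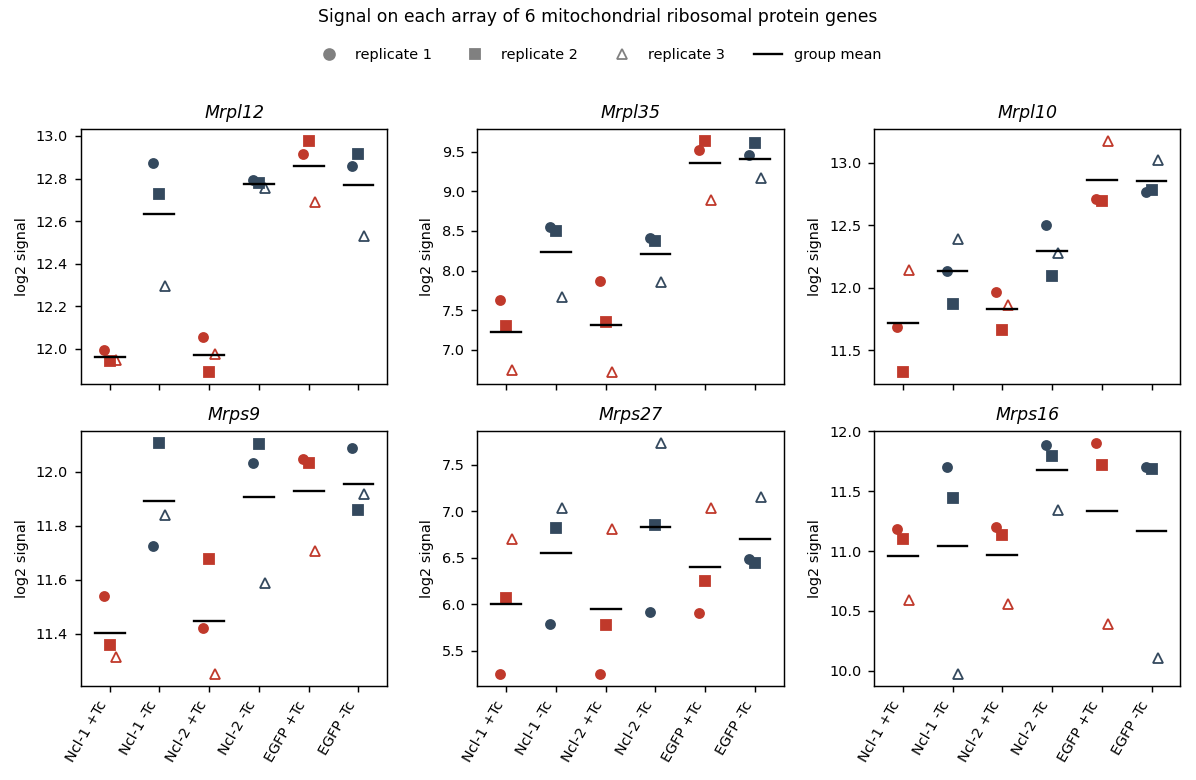
Log2 signal of single members on each of the 18 arrays, 1 point per array, with the groups from left to right and the mean of each group as a bar. Mrpl12 is lower on all 6 nucleolin-depleted arrays, and Mrpl35 is also lower in both nucleolin lines without Tc than in EGFP cells.

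Mrpl10 anchors the stalk to which Mrpl12 belongs. Its log2 signals were 11.69, 11.32 and 12.14 in Ncl-1 cells with Tc, against 12.14, 11.87 and 12.39 without Tc. In Ncl-2 cells they were 11.97, 11.66 and 11.86 with Tc, against 12.50, 12.09 and 12.28 without Tc. The groups overlapped in Ncl-1 cells and did not in Ncl-2 cells. The changes were -0.41 ± 0.23 (limma adjusted p = 0.358, and 0.0744 with the block) and -0.46 ± 0.23 (0.284, and 0.0479 with the block). A second Mrpl10 probe gave -0.45 ± 0.21 and -0.20 ± 0.21. With every kept probe tested by itself and the block, the second probe had limma adjusted p = 0.0434 and 0.376, and the first 0.0883 and 0.0566. Mrpl58, a peptidyl-tRNA hydrolase built into the large subunit that also exists as a free ribosome rescue factor, had -0.66 ± 0.45 in Ncl-2 cells (adjusted p = 0.495, and 0.0189 with the block) and -0.11 ± 0.45 in Ncl-1 cells. Mrpl45, which lies at the exit tunnel and in human mitochondria ties the ribosome to the inner membrane, had -0.37 ± 0.28 and -0.38 ± 0.28 (adjusted p = 0.557 and 0.539, and 0.215 and 0.201 with the block). Both Mrpl45 groups with Tc lay below those without Tc. Mrpl23, at the rim of the exit tunnel, had the highest response difference of the members, 0.47 ± 0.50 (adjusted p = 0.878, and 0.338 with the block). Leaving out 1 array moved it between 0.0445 (without EGFP +Tc replicate 3) and 0.89 (without EGFP -Tc replicate 3). Its signals were 13.04, 12.98 and 12.76 in Ncl-1 cells with Tc, against 12.92, 12.67 and 11.52 without Tc.

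In the small subunit 0 members passed without the block in either nucleolin line. Mrps9, the counterpart of bacterial S9, came closest. Mrps9 (Entrez Gene 69527) had log2 signals of 11.54, 11.36 and 11.32 in Ncl-1 cells with Tc, against 11.72, 12.11 and 11.84 without Tc. Ncl-2 cells had 11.42, 11.67 and 11.25 with Tc, against 12.03, 12.10 and 11.59 without Tc. The groups did not overlap in Ncl-1 cells and overlapped in Ncl-2 cells. The changes were -0.49 ± 0.20 (limma adjusted p = 0.167) and -0.46 ± 0.20 (0.196). Both passed with the block (adjusted p = 0.0316 and 0.0407) and neither did with the block in replicates 1 and 2 alone (0.107 and 0.0681). A second, dimmer Mrps9 probe gave -0.35 ± 0.25 and -0.10 ± 0.25 (adjusted p over all probes, with the block, 0.144 and 0.714).

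Mrps27, a pentatricopeptide repeat protein of the small subunit, had log2 signals of 5.25, 5.77 and 6.81 in Ncl-2 cells with Tc, against 5.92, 6.85 and 7.74 without Tc. Replicate 3 was the highest in both groups, and the Tc array was the lower one in each pair. The probe was detected on 2 of the 3 Ncl-2 arrays with Tc, so 1 of these signals did not pass detection. The change was -0.89 ± 0.53 (limma adjusted p = 0.392, and 0.00488 with the block), and -0.54 ± 0.53 in Ncl-1 cells (0.675, and 0.0656 with the block). Its EGFP change was -0.30 ± 0.53, the lowest of the 73 members in that line. Mrps16 and Mrps5, counterparts of bacterial S16 and S5, differed in Ncl-2 cells. Mrps16 had 11.20, 11.13 and 10.56 with Tc, against 11.89, 11.80 and 11.35 without Tc, a change of -0.71 ± 0.51 (adjusted p = 0.515, and 0.0371 with the block). Mrps5 had 10.55, 10.43 and 9.90 with Tc, against 10.88, 10.86 and 10.66 without Tc, a change of -0.51 ± 0.32 (adjusted p = 0.441, and 0.0251 with the block). In Ncl-1 cells their changes were -0.08 ± 0.51 and -0.01 ± 0.32, and the difference between the nucleolin lines was 0.64 ± 0.72 for Mrps16 and 0.49 ± 0.46 for Mrps5 (adjusted p = 1 for both, and 0.999 with the block). A second, dimmer Mrps5 probe gave -0.39 ± 0.30 in Ncl-2 cells. With every kept probe tested by itself and the block, its limma adjusted p there was 0.245, and that of the first Mrps5 probe 0.0307. Mrps7 (-0.38 ± 0.21 and -0.26 ± 0.21), Mrps10 (-0.31 ± 0.20 and -0.27 ± 0.20) and Mrps35 (-0.33 ± 0.25 and -0.51 ± 0.25) did not pass in either line, with or without the block. Mrps28 had the highest response difference of the small subunit, 0.36 ± 0.44 (adjusted p = 0.919, and 0.576 with the block), and 0.0524 to 0.61 with 1 array left out.

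Counted over the whole family, calls were as rare as among all genes or rarer. In Ncl-1 cells 1 of 73 members was lower (Mrpl12) and 0 were higher, against 2.74% of all genes lower and 5.38% higher (8.12% in either direction). In Ncl-2 cells 1 was lower, again Mrpl12, and 0 were higher, against 3.14% lower and 6% higher (9.13% in either direction). At an unadjusted p under 0.05 the counts were 3 and 3, against 20.4% and 20.8% of all genes, and with the block 8 and 14, against 39.3% and 38.5%. With the block 3 members were lower in Ncl-1 cells, against 12.5% of all genes, namely Mrpl12, Mrpl35 and Mrps9. In Ncl-2 cells 8 were lower with the block, against 13.1%, which were these 3 with Mrpl10, Mrpl58, Mrps5, Mrps16 and Mrps27, and 4 of them belong to each subunit. With the block 0 members were higher in either line, against 14.2% and 13.9% of all genes. With replicates 1 and 2 alone the counts were 2 and 4 without the block, against 10.3% and 14.9% of the genes then tested, and 5 and 6 with it, against 18.2% and 23.2%.

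The direction was uneven although the sizes were small. In Ncl-1 cells 48 of 73 members were below 0 (33 of 46 large and 15 of 27 small subunit genes), against 53.8% of all genes, and in Ncl-2 cells 53 were (33 large and 20 small), against 54.2%. In EGFP cells 25 were below 0, against 51.3%. By replicate pair 57, 64 and 22 members were below 0 in Ncl-1 cells, 47, 61 and 54 in Ncl-2 cells and 44, 14 and 33 in EGFP cells. Of all genes 49.9% to 54.8% were below 0 in a pair. Members often shifted together within a pair, so 73 genes are not 73 separate observations. Groups did not overlap for 4 members that were lower in Ncl-1 cells (Mrpl12, Mrpl35, Mrpl45 and Mrps9, against 10.6% of all genes) and for 1 that was higher (Mrpl33, against 12%). In Ncl-2 cells 9 were lower without overlap (5 large and 4 small, against 11.6%), and 2 were higher (Mrpl23 and Mrpl33, against 12.4%). Lower in all 3 replicate pairs were 17 members in Ncl-1 cells, against 30.7% of all genes, and 38 in Ncl-2 cells (22 large and 16 small), against 33.8%. In EGFP cells 7 were lower in all 3 pairs, against 13.3%. Higher in all 3 pairs were 5 members in Ncl-1 cells, 6 in Ncl-2 cells and 16 in EGFP cells, against 26.7%, 28.7% and 11.8% of all genes. In all 6 nucleolin pairs 13 members were lower, 17.8% of the family against 21.3% of all genes, 6 of the large and 7 of the small subunit. Mrpl33 and the genes so counted but not named above were chosen after their values were seen.

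The large and the small subunit differed little from each other. In Ncl-1 cells the median log2 change was -0.10 for the large subunit (quartiles -0.21 and 0.03) and -0.08 for the small subunit (-0.26 and 0.24), against -0.04 for all genes (-0.36 and 0.32). In Ncl-2 cells the medians were -0.20 for the large and -0.26 for the small subunit, against -0.05 for all genes. The Ncl-2 large subunit median was -0.13 without Ncl-2 -Tc replicate 2 and -0.13 without Ncl-2 +Tc replicate 3, and the small subunit median -0.17 without Ncl-2 +Tc replicate 3 and -0.16 without Ncl-2 -Tc replicate 3. In EGFP cells the medians were 0.04 and 0.04, against -0.00. Mrps30 and Mrps18a carry small subunit names, but their proteins sit in the large subunit. Mrps30 had -0.24 ± 0.24 and -0.08 ± 0.24, and Mrps18a -0.16 ± 0.41 and -0.26 ± 0.41. With both moved to the large subunit the medians were -0.11 and -0.01 in Ncl-1 cells and -0.20 and -0.26 in Ncl-2 cells. The 43 tested members with a bacterial counterpart had medians of -0.09 and -0.21 in the nucleolin lines, and the 30 that are specific to mitochondria had -0.07 and -0.19.

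Between replicate pairs the subunit medians varied by more than their size in Ncl-1 and EGFP cells and by less in Ncl-2 cells. In Ncl-1 cells the large subunit median was -0.24, -0.31 and 0.27 in pairs 1, 2 and 3, and the small subunit median was -0.20, -0.23 and 0.18. In Ncl-2 cells they were -0.10, -0.30 and -0.22 for the large and -0.07, -0.23 and -0.28 for the small subunit. The 3 Ncl-2 pairs thus had the same sign, and the Ncl-1 pairs did not. In EGFP cells they were -0.02, 0.11 and 0.03 for the large and -0.02, 0.10 and 0.02 for the small subunit. The SD over the pairs was 0.32 and 0.23 in Ncl-1 cells, 0.10 and 0.11 in Ncl-2 cells and 0.06 and 0.06 in EGFP cells. Within each pair the 2 subunits lay on the same side of 0. Without Ncl-1 -Tc replicate 3 the Ncl-1 medians were -0.26 and -0.28, and without Ncl-1 -Tc replicate 2 they were 0.07 and 0.06.

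**Figure D3:**
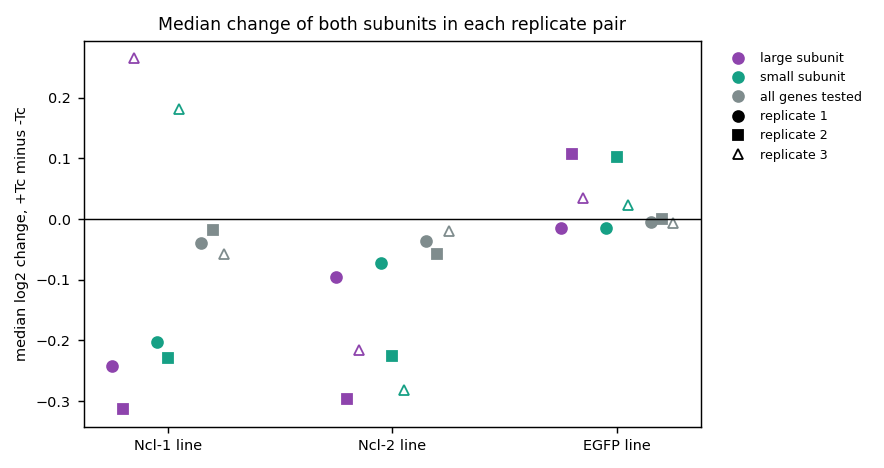
Median log2 difference with minus without Tc over the 46 large subunit genes, the 27 small subunit genes and all 10557 genes (colours), 1 point per replicate pair, for the Ncl-1, Ncl-2 and EGFP lines. The Ncl-1 points of replicate 3 lie above 0, at 0.27 and 0.18, where the other 2 pairs lie below 0.

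In 3 of the 6 groups the members read lower in replicate 3 than in the other replicates. Members had a median deviation of -0.59 between replicate 3 and replicates 1 and 2 in Ncl-1 cells without Tc, -0.49 in EGFP cells with Tc and -0.47 in EGFP cells without Tc. In the other 3 groups it was -0.09 (Ncl-1 with Tc), -0.05 (Ncl-2 with Tc) and -0.04 (Ncl-2 without Tc), and for all genes it was between -0.12 and -0.06. In the replicate 3 pair of Ncl-1 cells 9 members (12.3%, against 11.5% of all genes) were higher with Tc by more than 1, namely Mrpl23, Mrpl33, Mrpl52, Mrpl53, Mrps18c, Mrps21, Mrps28, Mrps33 and Mrps34. Mrps21, a small subunit protein with a bacterial counterpart, had 10.01, 10.62 and 10.63 in Ncl-1 cells with Tc, against 10.31, 10.63 and 8.91 without Tc. EGFP cells had 10.64, 10.77 and 9.31 with Tc, against 10.61, 10.69 and 9.07 without Tc. Ncl-2 cells had 10.42, 10.84 and 10.48 with Tc, against 10.52, 10.70 and 10.74 without Tc. The replicate 3 array was thus low in 3 of the 6 groups and not in the others, and Mrpl33 and Mrpl53 had the same pattern. These genes were chosen after their values were seen, and the cause was not tested.

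Tc itself, tested in EGFP cells, brought 0 of 73 members past the limma threshold, as it did 0% of all genes. At an unadjusted p under 0.05 there were 0 members, against 0.123% of all genes (13), and with the block 0, against 0.71% (75). Groups without overlap were found for 0 members in either direction, against 1.17% of genes lower and 0.673% higher. The changes ran from -0.30 (Mrps27) to 0.35 (Mrpl57). The responses of the nucleolin lines minus the EGFP response brought 0 members past the threshold, against 0.758% of all genes lower and 2.53% higher (3.29% in all), and 2 at an unadjusted p under 0.05, against 13.6%. With the block 2 members were lower, Mrpl12 and Mrpl35, against 5.48% of all genes, and 0 were higher, against 8.85%. The response difference was below 0 for 52 of 73 members (34 large and 18 small), against 54% of all genes. The medians of this difference were -0.18 for the large and -0.26 for the small subunit, and the large subunit median was -0.00 without EGFP -Tc replicate 3. The nucleolin lines were also compared with each other, and 0 of 73 members differed in response, as did 0% of all genes. At an unadjusted p under 0.05 the count was 0 of 73 without and 1 with the block, against 0.388% and 2.83% of all genes. The subunit medians of this difference, Ncl-1 minus Ncl-2, were 0.07 and 0.17, and -0.16 and -0.06 without Ncl-1 -Tc replicate 3.

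**Figure D4:**
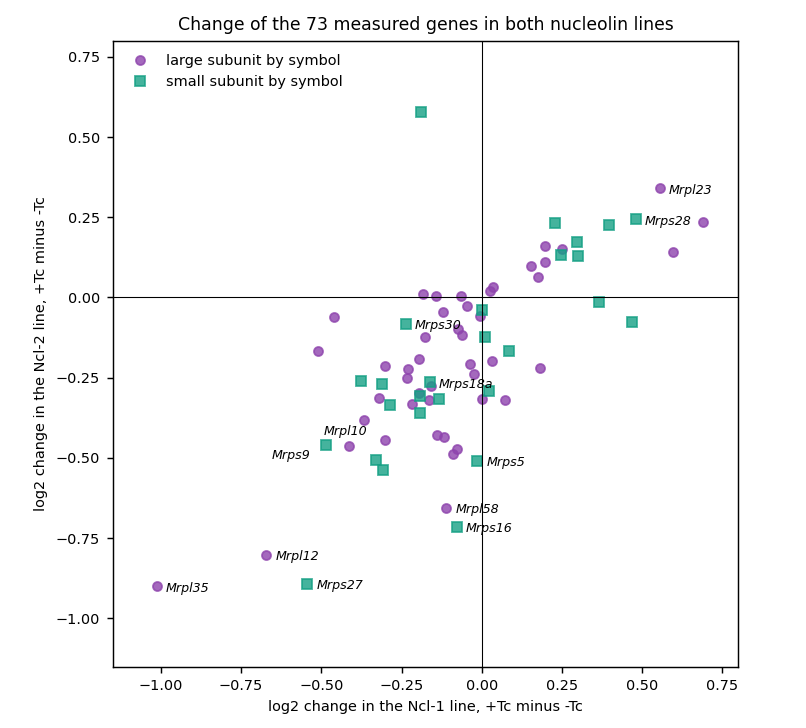
Log2 change with minus without Tc of each of the 73 members in Ncl-1 cells (horizontal axis) and in Ncl-2 cells (vertical axis), with the large and small subunit in different colours. Mrpl35 (-1.01 and -0.90) and Mrpl12 (-0.67 and -0.80) lie farthest to the lower left.

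Before induction few members passed the tests between the stable lines, with both directions together at about the share of all genes or below it. With the block the lower calls in Ncl-1 cells were above their share. Both comparisons share the 3 EGFP -Tc arrays and are given side by side. Without the block 0 of 73 members passed in Ncl-1 cells and 0 in Ncl-2 cells against EGFP cells, all without Tc, against 0.985% and 0.928% of all genes. At an unadjusted p under 0.05 there were 7 and 4, against 9.52% and 10.9%. With the block 6 members (8.22%) were lower and 0 higher in Ncl-1 cells, against 4.51% and 4.11% of all genes and 8.62% in either direction. In Ncl-2 cells 4 were lower and 1 was higher, against 6.43% and 5.76%, and 12.2% in either direction. The difference was below 0 for 50 of 73 members in Ncl-1 cells and 30 in Ncl-2 cells, against 49.7% and 50.5% of all genes. Groups did not overlap for 7 lower and 0 higher members in Ncl-1 cells, against 6.72% and 7.1%. In Ncl-2 cells 8 were lower and 2 higher without overlap, against 9.09% and 7.36%. Mrpl35, with the values above, had -1.17 ± 0.34 (limma adjusted p = 0.14, and 0.000646 with the block) in Ncl-1 cells and -1.20 ± 0.34 (0.122, and 0.000572 with the block) in Ncl-2 cells. These estimates were larger in size than the changes with Tc in the same lines (-1.01 ± 0.34 and -0.90 ± 0.34). The ordering was not tested, and both comparisons use the same nucleolin line arrays without Tc.

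Mrpl45 had log2 signals of 6.15, 6.42 and 5.98 in Ncl-1 cells and 5.77, 5.98 and 6.07 in Ncl-2 cells, against 6.79, 7.35 and 6.60 in EGFP cells, all without Tc. Its differences were -0.73 ± 0.28 (limma adjusted p = 0.343, and 0.0429 with the block) and -0.97 ± 0.28 (0.132, and 0.00907 with the block). Mrpl10 had -0.72 ± 0.23 (0.196, and 0.0124 with the block) and -0.56 ± 0.23 (0.348, and 0.0366 with the block). For both genes the nucleolin arrays without Tc lay below the EGFP arrays. Mrps33, a small subunit protein without a bacterial counterpart, had 11.24, 11.54 and 10.91 in Ncl-1 cells and 11.21, 11.55 and 11.78 in Ncl-2 cells, against 12.51, 12.27 and 12.14 in EGFP cells. Its differences were -1.08 ± 0.26 (0.0662, and 0.0109 with the block) and -0.79 ± 0.26 (0.183, and 0.0414 with the block), while Tc changed it by 0.23 ± 0.26 in both nucleolin lines. A second, dimmer Mrps33 probe gave differences without Tc of -1.17 ± 0.34 and -0.69 ± 0.34. With every kept probe tested by itself and the block, its limma adjusted p was 0.0159 and 0.12, and that of the first probe 0.0117 and 0.0443. Mrps24 (-0.70 ± 0.27) and Mrps25 (-0.58 ± 0.30) passed with the block in Ncl-1 cells (adjusted p = 0.0345 and 0.0488), and Mrpl4 (0.69 ± 0.62) in Ncl-2 cells (0.0453). Mrps33, Mrps24, Mrps25 and Mrpl4 were chosen after their values were seen. The subunit medians were -0.10 (large) and -0.13 (small) in Ncl-1 cells and 0.05 and -0.04 in Ncl-2 cells, against 0.00 and -0.00 for all genes. The large subunit median of Ncl-1 cells was 0.15 without Ncl-1 -Tc replicate 3, and those of Ncl-2 cells were -0.11 and -0.07 without EGFP -Tc replicate 3.

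Several probes of a gene mostly gave changes that lay close together. For 28 members more than 1 probe was kept, and Mrpl12 and Mrpl35, each with 1 probe, were not among them. The median distance between the changes of a gene's probes was 0.12 in Ncl-1 cells and 0.15 in Ncl-2 cells. The signs differed for 5 and 2 of the 28 genes, and in EGFP cells for 11. For 0 genes were the changes more than 1 apart. Most changes of members were themselves small, so short distances say little about agreement between probes. With every probe tested by itself, 0 of 116 member probes passed in Ncl-1 cells and 1 in Ncl-2 cells, against 5.72% and 6.54% of all probes. With the block the counts were 4 and 9, against 22.9% and 24.3%.

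Other genes of the same pathway were read from lists. Without the block 8.12% of all genes passed in Ncl-1 cells and 9.13% in Ncl-2 cells. Of 5 ribosome proteins with other names, 0 passed without the block, and Ptcd3, a pentatricopeptide repeat protein of the small subunit, had -0.76 ± 0.86 in Ncl-1 cells (limma adjusted p = 0.741, and 0.0328 with the block). Of 22 measured assembly factors 0 passed without the block. With it 6 were lower and 3 higher in Ncl-1 cells, against 12.5% and 14.2% of all genes, and 6 lower and 1 higher in Ncl-2 cells, against 13.1% and 13.9%. Tfb1m, the methyltransferase of the mitochondrial small subunit rRNA, had 7.41, 8.17 and 9.01 in Ncl-1 cells with Tc, against 8.38, 9.24 and 10.20 without Tc, and its signals overlapped. Its changes were -1.08 ± 0.67 (adjusted p = 0.424, and 0.00115 with the block) and, in Ncl-2 cells, -0.82 ± 0.67 (0.596, and 0.00706 with the block). Gtpbp10, a GTPase of large subunit assembly, had -0.63 ± 0.37 and -0.69 ± 0.37, and Rpusd4, a pseudouridine synthase that acts on the large subunit rRNA, had -0.66 ± 0.24 and -0.67 ± 0.24. Both passed with the block in both lines (adjusted p from 0.00177 to 0.00501), and without it in neither (0.101 to 0.385). Of 14 translation factors 0 passed without the block, and with it 3 were lower and 1 higher in Ncl-1 cells and 2 lower and 0 higher in Ncl-2 cells, against the same shares of all genes. Of 12 measured genes for transcription of the mitochondrial genome and for its RNA, 0 passed without the block in either line. With the block 0 of these passed in Ncl-1 cells, and 1 was higher and 0 lower in Ncl-2 cells, against the same shares. Tfb1m, Gtpbp10, Rpusd4 and Ptcd3 were chosen after their values were seen.

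Of 7 measured regulators of mitochondrial biogenesis, 0 passed without the block in Ncl-1 cells and 1 in Ncl-2 cells, against 8.12% and 9.13% of all genes. With the block 3 were lower and 1 higher in Ncl-1 cells, against 12.5% and 14.2% of all genes. In Ncl-2 cells 2 were lower and 1 higher with the block, against 13.1% and 13.9%. Ppargc1b, a coactivator of nuclear genes for mitochondrial proteins, had log2 signals of 7.34, 7.34 and 5.18 in Ncl-1 cells with Tc, against 9.01, 8.03 and 7.63 without Tc. Ncl-2 cells had 6.75, 6.34 and 6.04 with Tc, against signals of at least 7.76 without Tc. EGFP cells had 7.68, 8.07 and 6.98 with Tc, against 7.94, 7.93 and 6.91 without Tc, so that the groups overlapped in that line and in neither nucleolin line. It fell by 1.96 ± 0.55 in Ncl-2 cells (limma adjusted p = 0.0357, and 0.000167 with the block) and had -1.60 ± 0.55 in Ncl-1 cells (0.0935, and 0.000959 with the block). The growth regulator Myc had -0.94 ± 0.54 and -1.21 ± 0.54 (0.371 and 0.21, and 0.021 and 0.00443 with the block). Gabpa and Gabpb1 encode the subunits of GABP. Gabpa had -0.63 ± 0.33 and -0.46 ± 0.33 (adjusted p = 0.315 and 0.519, and 0.019 and 0.0736 with the block). Gabpb1 had 0.44 ± 0.18 and 0.51 ± 0.18 (0.17 and 0.101, and 0.0479 and 0.0237 with the block), and Nrf1 had -0.03 ± 0.24 and 0.10 ± 0.24 (0.98 and 0.924). Myc, Gabpa, Gabpb1 and Nrf1 were chosen after their values were seen.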

How the data were processed

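Transcripts of 18 samples were measured in 1 colour on Illumina Mouse-6 BeadChips. The authors deposited an intensity per probe that was not normalized between arrays, together with detection p-values. GenomeStudio 2010.1 was used, per the submitters' processing notes. The background option was not given in the sources used here. A second deposited table holds normalized intensity and served as an alternative.

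On the non-normalized table, limma 3.58.1 in R 4.3.3 was used for background correction (normexp, negative controls inferred from the detection p-values, offset 16), quantile normalization and log2. Kept were probes whose detection p was below 0.05 throughout 1 or more groups (19154 of 45281). The platform annotation gave 34885 probes 1 symbol, 18 several and 10378 none. The kept probe of highest mean stood for its gene. One limma fit with 6 group means gave 7 comparisons over 10557 genes, two-sided, with Benjamini-Hochberg adjustment over all of them and a threshold of 0.05. No list was tested as a set. The code was tested on simulated data.

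To see whether equal replicate numbers pair the arrays, deviations from group means were correlated. For the 45 array pairs that share a number r was 0.298 to 0.958 (median 0.715). For the other 90 it was -0.88 to 0.72 (median -0.40). Deviations within a group sum to 0, so negative values for different numbers partly follow from the calculation. Because replicate 3 lay apart, the correlations alone do not show that replicates 1 and 2 are paired across groups. The numbers were taken as pairs, and the replicate number was fitted as a block in an alternative. Other alternatives were the background correction, normalization, detection filter, probe rule, array weights, the authors' table, replicates 1 and 2 or 3 alone and leaving out each array. Testing every kept probe and the block in replicates 1 and 2 alone were chosen after seeing the data.

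The members and lists were chosen with earlier results of these data known. Named members were those past the threshold, with the block too in the Ncl-1, Ncl-2 or nucleolin minus EGFP comparison, those of smallest p in that last comparison (4 per subunit), the 2 of largest change each way, Mrps30 and Mrps18a. Lists named their members past the threshold.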

Additional observations from a re-analysis of the deposited data

Results flagged for a closer look

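Ncl itself responded differently between the lines. The mean change of the nucleolin lines minus the EGFP change was -4.59 ± 0.44 on the log2 scale (SE, limma adjusted p = 5.34e-05), the test of the difference itself. Its signals lay between 6.42 and 7.52 on the 6 nucleolin-depleted arrays, against 10.90 to 12.10 on the other 12. No member of the mitochondrial ribosomal protein family reached this threshold in the same test without the replicate block, with Mrpl12 nearest (-0.83 ± 0.23, adjusted p = 0.0585).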

How the results depend on the processing

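Of the results for single named members, with genes as the unit, 0 changed direction with a call under the alternatives run, 58 values passed the threshold that had not passed it, and 8 lost it, all of Mrpl12. Testing every probe ended the Ncl-1 call of Mrpl12 too. Counts of members called are given below for the Ncl-1, Ncl-2, nucleolin minus EGFP, Ncl-1 -Tc minus EGFP -Tc and Ncl-2 -Tc minus EGFP -Tc comparisons in this order. They were 1, 1, 0, 0 and 0 as reported and 3, 8, 2, 6 and 5 with the replicate block, with the shares of all genes given above. In replicates 1 and 2 alone they were 2, 4, 1, 2 and 3, against 10.3%, 14.9%, 5.48%, 2.1% and 2.26% of the genes then tested. With the block in these they were 5, 6, 3, 4 and 4, against 18.2%, 23.2%, 11.1%, 6.53% and 6.32%. They were 2, 2, 1, 1 and 1 with the authors' normalized table (against 8.34%, 9.32%, 3.69%, 0.919% and 1.01% of all genes). With array weights they were 29, 40, 12, 15 and 19 of 73, against 44.9%, 56.8%, 28.2%, 30.4% and 33.8%. There 1 member also differed in response between the nucleolin lines, against 9.42% of all genes. The array weights did not converge (0.377 to 27.8 for replicates 1 and 2, and 0.187 to 0.295 for replicate 3). Median scaling gave 0, 0 and 1 for Ncl-1, Ncl-2 and Ncl-2 -Tc, against 5.24%, 4.83% and 0.256% of all genes. Testing every probe gave 0 for Ncl-1, against 5.72% of all probes. No background correction gave 1 for nucleolin minus EGFP and for Ncl-1 -Tc, against 3.37% and 0.985%. No detection filter gave 1 for nucleolin minus EGFP, against 1.78%. Leaving out 1 array gave 0 to 2 for Ncl-1 (2 without Ncl-1 -Tc replicate 3, against 5.93% of all genes). It gave 0 to 1 for nucleolin minus EGFP (1 without that array, against 3.16%). For Ncl-1 -Tc it gave 0 to 1 (1 without Ncl-1 +Tc replicate 3, against 1.12%). The block changed no call of a member in the EGFP and the Ncl-1 minus Ncl-2 comparisons. Subunit medians (large, then small) under median scaling were -0.36 for Ncl-2 (large), -0.11 and -0.0891 for EGFP and -0.26 and -0.28 for Ncl-1 -Tc, where the medians of all genes were -0.13, -0.14 and -0.12. In replicate 3 alone they were 0.26 and 0.22 for Ncl-1, -0.0736 for nucleolin minus EGFP (small), 0.58 and 0.61 for Ncl-1 minus Ncl-2, and 0.38 and 0.58 for Ncl-2 -Tc. In replicates 1 and 2 alone the small subunit median was -0.12 for Ncl-2, with and without the block, and with array weights the large subunit median was -0.0047 for Ncl-1 -Tc. Leaving out 1 array moved the medians from -0.26 to -0.13 and from -0.34 to -0.16 for Ncl-2, from -0.11 to 0.22 and from -0.10 to 0.21 for EGFP, from -0.35 to -0.032 for nucleolin minus EGFP (small) and from -0.29 to 0.15 for Ncl-1 -Tc (large). The cause was not tested. Most members read well above background, and each group had 3 arrays.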
